A study of Mus musculus with 10 samples.

Results

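Open chromatin was examined at 10 genes that code for AP-1 proteins (Batf, Batf3, Jun, Junb, Jund, Fos, Fosb and Fosl2), for Irf4 and for Maf. All regions of the table that overlapped one of these gene bodies or lay within 50 kb of its transcription start were taken, 189 of 94823 regions in all. They numbered 13 at Batf, 8 at Batf3, 9 at Jun, 27 at Junb, 23 at Jund, 20 at Fos, 38 at Fosb, 13 at Fosl2, 23 at Irf4 and 15 at Maf. Position alone chose them, so regions of neighbouring genes were included. The named gene was the nearest protein-coding start for 123 regions, and this was so for every region at Fos, Fosl2, Irf4 and Maf but for only 7 of 27 at Junb, 4 of 23 at Jund and 17 of 38 at Fosb.

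Chromatin accessibility was measured by ATAC-seq, a transposase assay, in thymic invariant natural killer T (iNKT) cells sorted by CD27 and CD122, with CD27+ CD122+ cells taken as iNKT1 and CD27+ CD122- cells as iNKT2. Thymi of BALB/c mice were compared with those of SKG mice on the BALB/c background, whose hypomorphic Zap70 allele weakens the kinase that acts directly downstream of the T cell receptor (TCR). The comparison asks how each subset's regulatory elements depend on the strength of the TCR signal. Of the 10 libraries, 4 were from iNKT1 cells (2 for each genotype) and 6 from iNKT2 cells (3 for each genotype). The SKG allele is carried by all cells of the mouse, and no iNKT17 group was made. The mice were age-matched young adults, and whether replicates came from separate mice is not given in the sources used here. The p-values therefore measure the spread between these libraries, which may be technical.

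AP-1 factors are dimers of basic leucine zipper proteins, in which a Jun protein pairs with a Fos or Batf protein. Several of their genes are induced within minutes of TCR engagement. Irf4 is also induced in proportion to TCR signal, and on its own it binds DNA weakly, so that in T cells it often sits beside a Batf-Jun dimer at composite sites. Maf codes for c-Maf, a larger leucine zipper factor that activates Il4 and is needed by iNKT17 cells.

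Each library held 14988590 to 36342635 insertions inside the listed regions, with a median of 40 to 120 insertions per region. Levels are given as CPM, insertions scaled to each library's total and TMM factor, and changes as log2 values ± SE from edgeR's quasi-likelihood fit over all 94823 regions. A region was called when its Benjamini-Hochberg adjusted p was under 0.01 and its change at least 4-fold. The regions over the starts of 4 iNKT1 markers (Tbx21, Ifng, Il2rb and Cxcr3) summed to 196 to 220 CPM in the iNKT1 libraries and to 43.8 to 63.8 CPM in the iNKT2 libraries. Those of 5 iNKT2 markers (Zbtb16, Gata3, Il4, Il17rb and Ccr7) summed to 181 to 213 CPM in iNKT1 and to 179 to 227 CPM in iNKT2 libraries, so their sum did not separate the subsets. Singly, Il17rb was higher in iNKT2 cells of BALB/c (log2 1.08, edgeR adjusted p = 6.2e-05) and SKG mice (1.44, edgeR adjusted p = 9.4e-06). Ccr7 was higher in SKG only (1.46, edgeR adjusted p = 1.8e-05), and Zbtb16, Gata3 and Il4 passed adjusted p under 0.01 in neither. Start regions of 3 iNKT17 markers (Il17a, Il23r and Ccr6) summed to 0.128 to 0.578 CPM in iNKT1, 8.31 to 12.4 CPM in BALB/c iNKT2 and 6.33 to 8.45 CPM in SKG iNKT2 libraries. No region lay over the starts of 5 double-positive thymocyte or 3 B cell markers. In sorted bulk cells, a change in the share of cells of one kind and a change in each cell cannot be told apart. Start regions held 44.3% to 49.3% of insertions in the BALB/c iNKT2 and 48.7% to 52.6% in the SKG iNKT2 libraries, with replicate 1 lowest in both groups.

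The sequences of 4 of the called regions, each at a different gene, are shown first, since the results return to them. Each is the central 300 bases of its region on the plus strand of GRCm38 (mm10), 5′ to 3′. Capitals mark exact matches on either strand to TGACTCA (AP-1), TGGAAA (the NFAT core) or AGGTGTGA (T-box). Distances are from the gene's annotated start to the centre of the region and are negative upstream.
Maf -35.0 kb (chr8:115742626-115742925): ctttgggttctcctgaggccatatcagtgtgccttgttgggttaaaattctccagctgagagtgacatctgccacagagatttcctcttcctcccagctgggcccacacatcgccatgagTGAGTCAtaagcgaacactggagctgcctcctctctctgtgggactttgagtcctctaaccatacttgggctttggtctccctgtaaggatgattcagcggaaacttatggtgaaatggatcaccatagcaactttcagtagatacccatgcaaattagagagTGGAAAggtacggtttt
Batf -25.6 kb (chr12:85660961-85661260): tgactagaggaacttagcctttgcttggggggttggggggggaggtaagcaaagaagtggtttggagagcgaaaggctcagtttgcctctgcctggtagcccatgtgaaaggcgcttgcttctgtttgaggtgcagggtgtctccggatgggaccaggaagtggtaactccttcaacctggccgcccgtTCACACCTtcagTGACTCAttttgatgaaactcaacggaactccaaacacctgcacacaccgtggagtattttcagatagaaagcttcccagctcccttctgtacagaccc
Fosl2 +12.9 kb (chr5:32148568-32148867): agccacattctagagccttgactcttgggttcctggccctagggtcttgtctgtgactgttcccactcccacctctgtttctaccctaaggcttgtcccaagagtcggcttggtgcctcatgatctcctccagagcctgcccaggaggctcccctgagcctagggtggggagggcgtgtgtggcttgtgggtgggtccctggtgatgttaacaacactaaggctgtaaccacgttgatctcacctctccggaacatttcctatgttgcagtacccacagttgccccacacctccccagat
Jun -31.9 kb (chr4:95083949-95084248): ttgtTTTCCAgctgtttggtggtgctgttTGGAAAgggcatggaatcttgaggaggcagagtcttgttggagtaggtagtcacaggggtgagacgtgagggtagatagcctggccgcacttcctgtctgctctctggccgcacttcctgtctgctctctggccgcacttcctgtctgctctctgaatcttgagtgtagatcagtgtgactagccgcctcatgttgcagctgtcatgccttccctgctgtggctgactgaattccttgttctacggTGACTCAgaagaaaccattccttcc
The Maf, Batf and Jun sequences hold the AP-1 string, and the Fosl2 sequence none of the strings searched. Sequences were also taken at Junb -4.0 kb and Fosb -12.7 kb, which are not printed, and neither holds the AP-1 string.

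Irf4 was the gene with the most regions that were more open in iNKT2 cells. Of its 23 regions, 6 were called higher and 1 lower in iNKT2 than in iNKT1 cells of BALB/c mice, and 7 were called higher and 1 lower in the SKG comparison, with 6 higher and 1 lower called in both. Of all regions, 15.5% were called higher and 6.36% lower in BALB/c, and 10.2% and 6.96% in SKG. Over its regions the median log2 change was 1.07 for BALB/c and 1.30 for SKG cells, while over the whole table it was 0.06 and 0.14. The gene lies on chr13:30749226-30766976 on the plus strand, and called regions were found upstream, in introns and beyond its 3' end.

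The intergenic region at -16.1 kb of Irf4 (chr13:30732815-30733464) was nearly closed in iNKT1 cells. It measured 0.597 and 0.617 CPM in BALB/c iNKT1, 0.642 and 0.577 CPM in SKG iNKT1, 7.90, 9.60 and 10.1 CPM in BALB/c iNKT2, and 7.76, 6.75 and 10.2 CPM in SKG iNKT2. All iNKT2 libraries were above all iNKT1 libraries, and the genotypes overlapped within the iNKT2 subset. The change was 3.91 ± 0.284 in BALB/c (edgeR adjusted p = 3.0e-08) and 3.74 ± 0.312 in SKG (edgeR adjusted p = 1.5e-07). Its central bases hold an IRF string, GAAANNGAA.

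The intronic region at +11.3 kb opened in iNKT2 cells of both genotypes but to different levels. It measured 2.27 and 2.29 CPM in BALB/c iNKT1, 2.06 and 2.18 CPM in SKG iNKT1, 17.3, 21.6 and 18.8 CPM in BALB/c iNKT2, and 12.1, 9.97 and 11.5 CPM in SKG iNKT2. Every SKG iNKT2 library was below every BALB/c iNKT2 library. The subset change was 3.08 ± 0.202 in BALB/c (edgeR adjusted p = 1.4e-08) and 2.40 ± 0.215 in SKG, and the genotype change in iNKT2 was -0.78 ± 0.153 (edgeR adjusted p = 1.5e-03). The difference between the genotype changes of the 2 subsets, -0.68 ± 0.288, did not pass (edgeR adjusted p = 0.20).

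Closer to the gene, the region at -6.6 kb rose from 5.11 ± 0.130 to 23.8 ± 5.51 CPM in BALB/c (SD, n = 2 and 3) and from 4.36 ± 1.27 to 28.5 ± 3.79 CPM in SKG. The regions at -3.0 kb and +7.0 kb were called higher in iNKT2 cells in both genotypes as well. At -8.1 kb the level was 0.601 ± 0.214 CPM in BALB/c iNKT2 against 0.0889 CPM in BALB/c iNKT1. In SKG this small region had 100 insertions in iNKT2 against 2 in iNKT1, a ratio of 22.2 with a counting interval of 5.98 to 186.

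The pattern was not uniform along the locus. The region over the Irf4 start measured 13.0 ± 1.71 CPM in BALB/c iNKT1, 11.3 ± 3.17 in SKG iNKT1, 15.6 ± 1.01 in BALB/c iNKT2 and 18.6 ± 0.935 in SKG iNKT2. Its subset change passed adjusted p under 0.01 in SKG (0.71 ± 0.184, edgeR adjusted p = 4.3e-03) and not in BALB/c (0.27 ± 0.176, edgeR adjusted p = 0.20). The region at +27.1 kb, past the 3' end, went the other way and was called lower in iNKT2 cells of both genotypes. It measured 4.36 and 4.19 CPM in BALB/c iNKT1, 7.58 and 8.92 CPM in SKG iNKT1, 0.753, 0.714 and 0.577 CPM in BALB/c iNKT2, and 1.04, 1.15 and 0.607 CPM in SKG iNKT2.

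Beside the start, 2 Irf4 regions differed between genotypes in only part of the groups. The region at -0.7 kb held 8.03 and 6.04 CPM in BALB/c iNKT1 and 3.08 and 2.95 CPM in SKG iNKT1, a fall of 1.23 ± 0.255 on the log2 scale (edgeR adjusted p = 9.3e-03). In iNKT2 it held 13.9, 19.4 and 15.0 CPM in BALB/c and 16.0, 18.5 and 22.6 CPM in SKG, which overlap. The region at +1.5 kb, in the annotated UTR, held 6.15 and 5.99 CPM in BALB/c iNKT1, 4.43 and 4.75 CPM in SKG iNKT1, 6.05, 6.22 and 4.0 CPM in BALB/c iNKT2 and 17.1, 9.78 and 11.5 CPM in SKG iNKT2. All 3 SKG iNKT2 libraries stood above the other 7, with a genotype change in iNKT2 of 1.24 ± 0.220 (edgeR adjusted p = 7.1e-04).

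**Figure D1:**
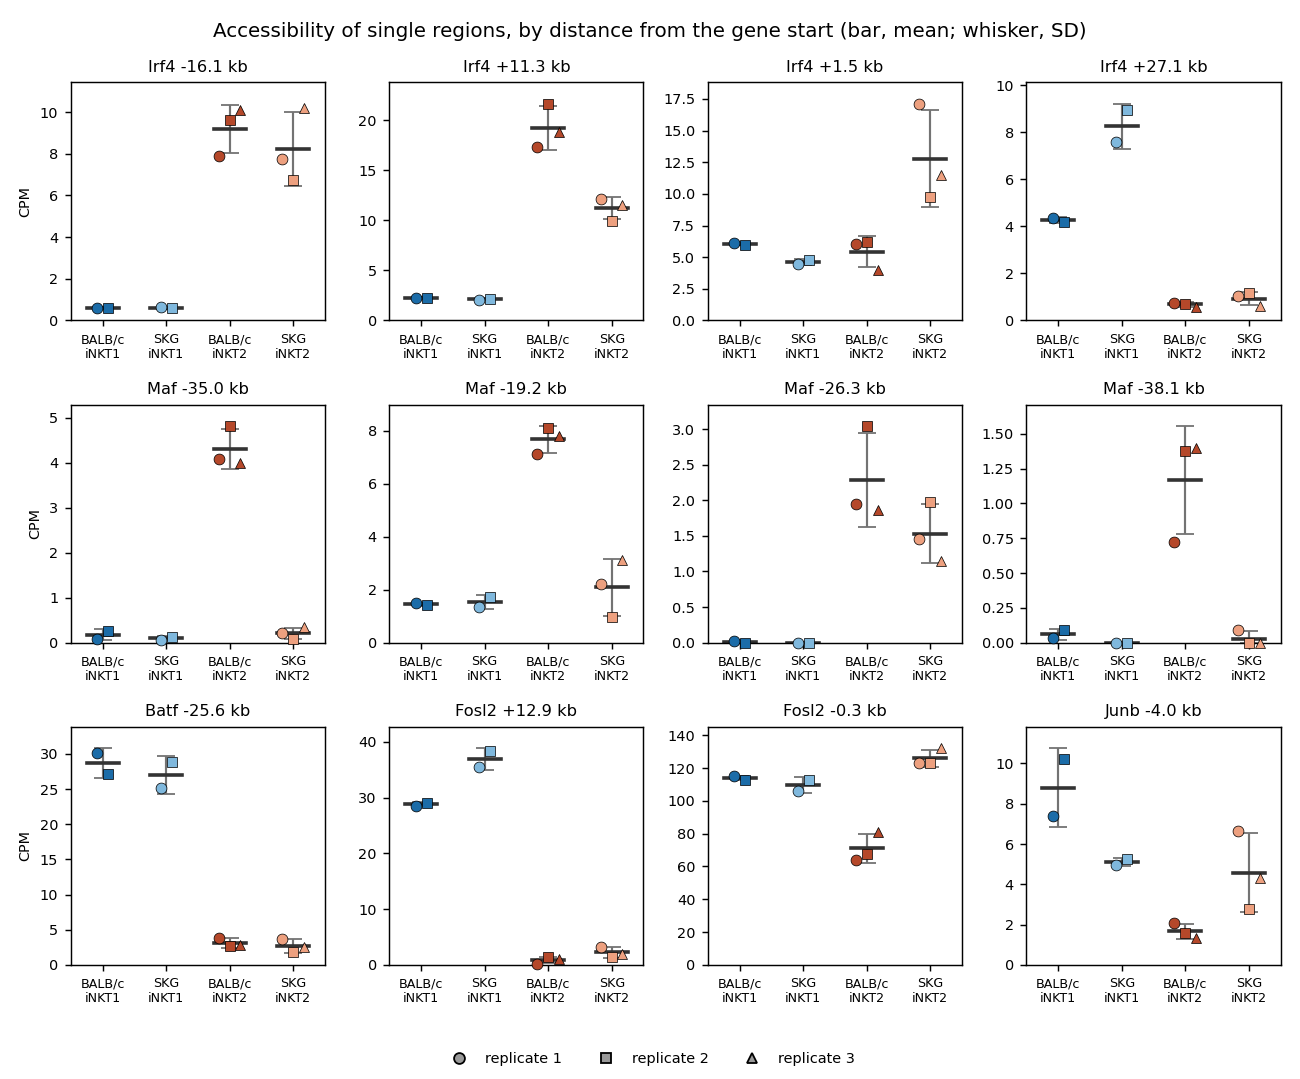
Accessibility in CPM (linear axis, starting at 0) of 12 regions at Irf4, Maf, Batf, Fosl2 and Junb, 1 point per library and a bar at the mean with a whisker of ± SD for each of the 4 groups. The Irf4 region at -16.1 kb lies between 0.577 and 0.642 CPM in the iNKT1 libraries and between 6.75 and 10.2 CPM in the iNKT2 libraries, while the Maf region at -35.0 kb lies between 4.0 and 4.81 CPM in the BALB/c iNKT2 libraries and between 0.0642 and 0.337 CPM in the others.

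Maf showed another pattern, with upstream regions that were more open in BALB/c iNKT2 than in SKG iNKT2 cells, some of them at low levels in every group. Of its 15 regions, 5 were called higher in iNKT2 than in iNKT1 cells of BALB/c mice, against 15.5% of all regions. In SKG 1 was called higher, against 10.2% of all regions. In SKG iNKT2 against BALB/c iNKT2 cells 3 were called lower, as were 4.72% of all regions. These 3 were the only ones of the 189 regions that edgeR called in this genotype comparison. The gene lies on chr8:115682942-115707794 on the minus strand, so upstream regions have higher coordinates.

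The Maf region at -35.0 kb (chr8:115742597-115742955, sequence above) measured 4.08, 4.81 and 4.0 CPM in BALB/c iNKT2. It measured 0.208, 0.0918 and 0.337 CPM in SKG iNKT2, 0.0896 and 0.264 CPM in BALB/c iNKT1, and 0.0642 and 0.128 CPM in SKG iNKT1. The BALB/c iNKT2 libraries were thus alone at a high level and the SKG iNKT2 libraries overlapped with BALB/c iNKT1. The genotype change in iNKT2 was -4.39 ± 0.392 (edgeR adjusted p = 1.6e-06), and the subset change was 4.68 ± 0.462 in BALB/c (edgeR adjusted p = 5.3e-07) and 1.02 ± 0.833 in SKG (edgeR adjusted p = 0.33). The interaction, which is the iNKT2 genotype change less the iNKT1 genotype change, was -3.65 ± 1.24 and did not pass (edgeR adjusted p = 0.11), with 3 and 6 insertions in the BALB/c and 1 and 2 in the SKG iNKT1 libraries.

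A further region at -38.1 kb held 0.721, 1.38 and 1.4 CPM in BALB/c iNKT2, and 0.0891, 0 and 0 CPM in SKG iNKT2. There were 109 insertions in BALB/c iNKT2 against 3 in SKG iNKT2, a ratio of 27.2 (counting interval 9.05 to 134), and against 3 in BALB/c iNKT1, a ratio of 21.7 (7.24 to 107). SKG iNKT1 libraries had none. The region at -4.0 kb held 0.816, 1.11 and 0.907 CPM in BALB/c iNKT2 and 0.238, 0.0459 and 0.135 CPM in SKG iNKT2, a change of -2.61 ± 0.552 (edgeR adjusted p = 2.7e-03). Its call did not hold without BALB/c iNKT2 replicate 2 or SKG iNKT2 replicates 2 or 3, or under voom (-2.15, limma adjusted p = 0.02). The regions at -38.1 and -4.0 kb were both below the lower quartile of mean insertions. A fit without such low-count regions therefore kept only the call at -35.0 kb.

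The region at -19.2 kb (chr8:115726842-115727207) moved with genotype by slightly less than 4-fold. It measured 7.12, 8.09 and 7.79 CPM in BALB/c iNKT2, 2.23, 0.964 and 3.10 CPM in SKG iNKT2, 1.49 and 1.41 CPM in BALB/c iNKT1, and 1.35 and 1.73 CPM in SKG iNKT1. All SKG iNKT2 libraries lay below all BALB/c iNKT2 libraries, with a change of -1.90 ± 0.286 (edgeR adjusted p = 1.8e-04), and the subset change in BALB/c was 2.39 ± 0.338 (edgeR adjusted p = 1.9e-05). The intronic region at +18.5 kb was called higher in the iNKT2 cells of BALB/c mice, and its mean was 1.01 ± 0.237 CPM in BALB/c iNKT2 and 0.199 ± 0.175 CPM in SKG iNKT2 (change -2.27 ± 0.650, edgeR adjusted p = 0.017).

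By contrast, the Maf region at -26.3 kb opened in iNKT2 cells of both genotypes. It held 1.94, 3.04 and 1.86 CPM in BALB/c iNKT2 and 1.46, 1.97 and 1.15 CPM in SKG iNKT2, which overlap (change -0.58 ± 0.327, edgeR adjusted p = 0.22). In iNKT1 there was 1 insertion in the BALB/c libraries and 0 in the SKG libraries. The SKG iNKT2 level was at least 16.1-fold higher than a floor of 3 insertions over both SKG iNKT1 libraries, and the BALB/c ratio, 222 insertions to 1, was 133 with a counting interval of 23.6 to 5270. The broad region over the Maf start fell by 0.59 ± 0.121 on the log2 scale in BALB/c iNKT2 (90.0 ± 5.33 CPM in iNKT1, 59.6 ± 2.55 CPM in iNKT2, edgeR adjusted p = 5.1e-04). Its genotype change in iNKT2 was 0.31 ± 0.110 (edgeR adjusted p = 0.052), so the fall at some upstream regions was not seen at the start.

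The iNKT17 markers were also higher in iNKT2 than in iNKT1 libraries, and their sums overlapped between the iNKT2 genotypes, although single markers did not move together. The mean over the Il17a start was 5.46 CPM in BALB/c iNKT2 and 1.16 CPM in SKG iNKT2, that of Il23r 4.24 and 3.58 CPM, and that of Ccr6 0.937 and 2.72 CPM. In SKG iNKT2 against BALB/c iNKT2 cells Il17a fell by 2.32 on the log2 scale (edgeR adjusted p = 1.8e-04), Ccr6 rose by 1.51 (edgeR adjusted p = 6.7e-03) and Il23r did not pass (-0.23, edgeR adjusted p = 0.58). The sort required CD27. Their part in the Maf and Irf4 results was not tested.

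**Figure D2:**
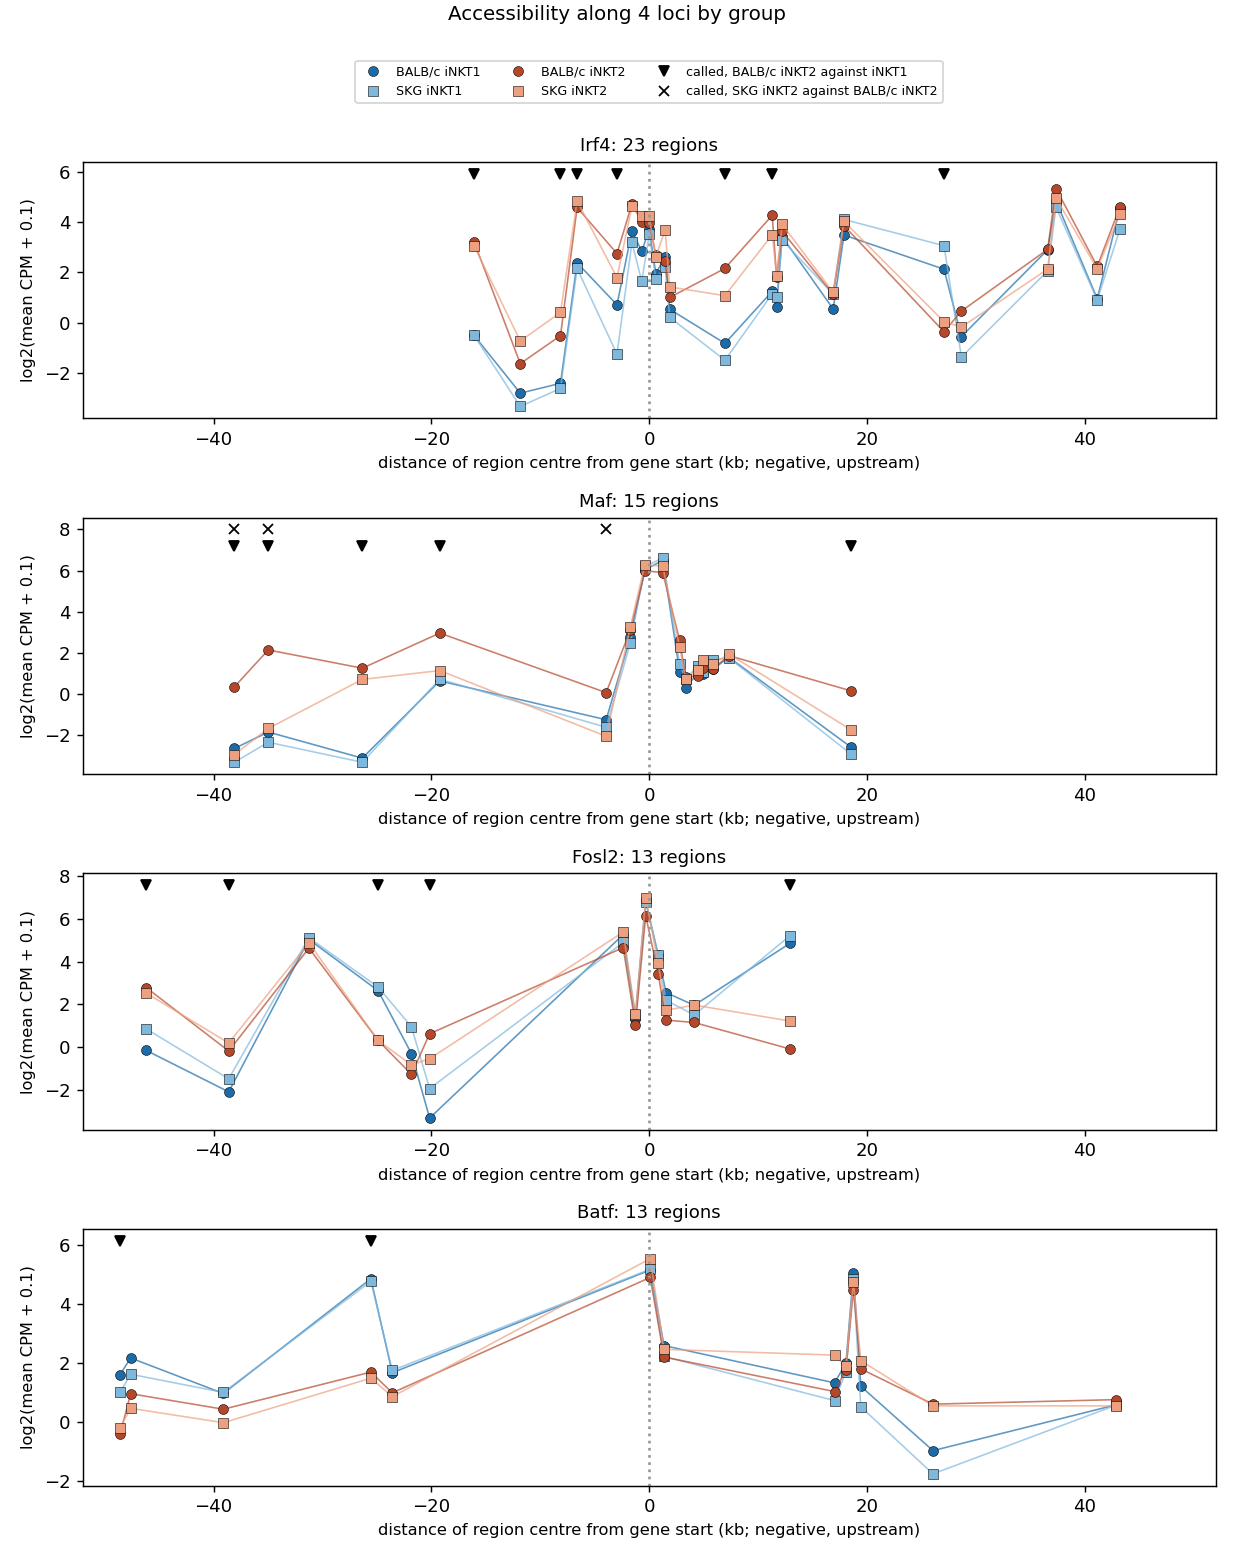
Mean accessibility of each region at Irf4, Maf, Fosl2 and Batf against its distance in kb from the transcription start, as log2(mean CPM + 0.1), with 1 series of points for each of the 4 groups. At Maf the start region is high in all groups, and the upstream region at -35.0 kb has a mean of 4.30 CPM in BALB/c iNKT2 and 0.212 CPM in SKG iNKT2.

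Batf codes for the partner that Jun proteins and Irf4 share at composite sites, and its strongest difference was a region that closed in iNKT2 cells. At -25.6 kb (chr12:85660930-85661293) the level was 30.2 and 27.2 CPM in BALB/c iNKT1, 25.1 and 28.9 CPM in SKG iNKT1, 3.86, 2.70 and 2.76 CPM in BALB/c iNKT2, and 3.74, 1.79 and 2.49 CPM in SKG iNKT2. The subsets did not overlap and the genotypes did. The change was -3.20 ± 0.234 in BALB/c (edgeR adjusted p = 3.2e-08) and -3.30 ± 0.244 in SKG (edgeR adjusted p = 4.8e-08). As printed above, this region holds a T-box string close beside an AP-1 string. Another region at -48.6 kb, in an intron of the neighbouring AP-1 repressor gene Jdp2, was called lower in BALB/c iNKT2 (2.93 ± 0.0398 to 0.648 ± 0.0470 CPM).

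Over the Batf start the SKG iNKT2 libraries stood apart. It held 35.6 and 34.9 CPM in BALB/c iNKT1, 35.8 and 36 CPM in SKG iNKT1, 30.3, 29.7 and 28.8 CPM in BALB/c iNKT2, and 48.9, 45.5 and 44.0 CPM in SKG iNKT2. The 3 SKG iNKT2 libraries were the highest of the 10, with a change of 0.64 ± 0.106 against BALB/c iNKT2 (edgeR adjusted p = 4.1e-04). Batf3, a close relative expressed mostly in dendritic cells and some activated T cells, had no region called by edgeR in any comparison, with 4 of its 8 regions at an unadjusted p under 0.05 between the BALB/c subsets, against 64.8% of all regions, and the smallest adjusted p, 1.8e-03, at +28.2 kb (1.12). Its start region held 3.23 and 3.26 CPM in BALB/c iNKT1, 2.18 and 3.85 in SKG iNKT1, 3.26, 4.84 and 5.73 in BALB/c iNKT2, and 4.90, 5.97 and 5.93 CPM in SKG iNKT2, and no change there passed.

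Fosl2 (Fra-2), a Fos relative that is expressed for longer after stimulation than Fos, had the largest fall of the 189 regions in BALB/c iNKT2 against BALB/c iNKT1 cells. The intronic region at +12.9 kb (chr5:32148286-32149150) held 28.6 and 29.1 CPM in BALB/c iNKT1, 35.5 and 38.3 CPM in SKG iNKT1, 0.188, 1.35 and 0.989 CPM in BALB/c iNKT2, and 3.27, 1.47 and 1.96 CPM in SKG iNKT2. The change was -5.07 ± 0.410 in BALB/c (edgeR adjusted p = 2.7e-07) and -3.99 ± 0.382 in SKG (edgeR adjusted p = 1.6e-06). The region at -24.9 kb was also called lower in both genotypes, from 6.12 ± 0.552 to 1.14 ± 0.276 CPM in BALB/c and from 6.90 ± 0.402 to 1.14 ± 0.0799 CPM in SKG.

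Other Fosl2 regions opened in BALB/c iNKT2 cells. The region at -46.2 kb rose from 0.796 ± 0.564 to 6.77 ± 1.19 CPM (3.00 ± 0.355, edgeR adjusted p = 3.2e-06), and in SKG it changed by 1.71 ± 0.350, under the 4-fold limit. At -20.2 kb no insertion was found in BALB/c iNKT1 and 140 in BALB/c iNKT2, a level at least 27.9-fold higher than a floor of 3 insertions over the group. At -38.6 kb the change was 2.45 ± 0.560 (edgeR adjusted p = 1.3e-03). With +12.9 and -24.9 kb this made 3 of 13 Fosl2 regions called higher and 2 lower in BALB/c, against 15.5% and 6.36% of all regions. In SKG 3 were called lower, against 6.96% of all regions, the third at -21.8 kb (1.83 ± 0.770 to 0.460 ± 0.223 CPM).

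The Fosl2 start differed between genotypes within the iNKT2 subset. It held 115 and 113 CPM in BALB/c iNKT1, 106 and 113 CPM in SKG iNKT1, 64.2, 67.7 and 81.0 CPM in BALB/c iNKT2, and 123, 123 and 132 CPM in SKG iNKT2. BALB/c iNKT2 was thus the lowest group, with no overlap with the other 3. The subset change in BALB/c was -0.68 ± 0.129 (edgeR adjusted p = 2.7e-04), and the genotype change in iNKT2 was 0.83 ± 0.118 (edgeR adjusted p = 1.1e-04).

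Fos and Fosb, the classical immediate early partners of Jun, were less open at their starts in iNKT2 than in iNKT1 cells of BALB/c mice. The Fos start held 101 and 99.8 CPM in BALB/c iNKT1, 105 and 110.0 CPM in SKG iNKT1, 53.2, 53.2 and 63.3 CPM in BALB/c iNKT2, and 98.2, 75.2 and 69.1 CPM in SKG iNKT2. The Fosb start held 57.3 and 65.4 CPM, 71.2 and 72.9 CPM, 32.8, 27.0 and 29.2 CPM, and 51.1, 37.3 and 41.9 CPM in the same order of groups. Both fell in BALB/c, by 0.83 ± 0.149 (edgeR adjusted p = 1.8e-04) and by 1.05 ± 0.145 (edgeR adjusted p = 1.6e-05). In iNKT2 cells SKG exceeded BALB/c by 0.55 ± 0.133 at Fosb (edgeR adjusted p = 6.4e-03) and by 0.52 ± 0.136 at Fos, which missed the threshold (edgeR adjusted p = 0.011). The Fosb start did not pass with library totals (0.42), voom (0.36) or a fit to the 2 groups alone (0.55, edgeR adjusted p = 0.021), or without either BALB/c iNKT1 or SKG iNKT1 replicate, BALB/c iNKT2 replicate 2 or 3, or SKG iNKT2 replicate 1 or 3.

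Away from the starts, the Fos region at -43.3 kb fell with subset in both genotypes, from 14.6 ± 0.618 to 3.92 ± 0.906 CPM in BALB/c and from 13.6 ± 1.38 to 3.59 ± 0.2 CPM in SKG. Those at +4.1 and +5.0 kb were called higher in SKG iNKT2 (2.28 ± 0.553 and 2.31 ± 0.499). At Fosb the region at -12.7 kb was called lower in BALB/c iNKT2 (6.42 ± 1.27 to 1.52 ± 0.115 CPM), a call lost with library totals (-1.78) and without BALB/c iNKT1 replicate 2 or BALB/c iNKT2 replicate 3. The region at -23.0 kb, nearer to the DNA repair gene Ercc1, fell by 1.61 ± 0.155 in BALB/c and 1.51 ± 0.157 in SKG. The region at +43.8 kb, in an exon of Vasp, an actin regulator, held 15.7, 17.5 and 17.1 CPM in BALB/c iNKT2 and 40.7, 31.2 and 31.2 CPM in SKG iNKT2 (1.04 ± 0.129, edgeR adjusted p = 3.3e-05).

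The start of Jun itself did not pass in any comparison. It held 209 and 211 CPM in BALB/c iNKT1, 253 and 244 CPM in SKG iNKT1, 167, 212 and 244 CPM in BALB/c iNKT2, and 199, 270.0 and 277 CPM in SKG iNKT2, with replicate 1 lowest in both iNKT2 groups. Distal to it, the region at -31.9 kb (chr4:95083947-95084252) fell from 8.12 ± 0.889 to 1.88 ± 0.327 CPM in BALB/c (-2.10 ± 0.216, edgeR adjusted p = 7.9e-07) and from 6.90 ± 0.416 to 1.17 ± 0.0865 CPM in SKG (-2.54 ± 0.240, edgeR adjusted p = 4.8e-07). Its sequence above holds an AP-1 string and 2 NFAT cores. The BALB/c change was under 4-fold with library totals (-1.81) and without BALB/c iNKT1 replicate 1 or BALB/c iNKT2 replicate 3.

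At Junb, often an antagonist of Jun, the start held 151 and 147 CPM in BALB/c iNKT1, 165 and 158 CPM in SKG iNKT1, 100, 69.4 and 77.5 CPM in BALB/c iNKT2, and 166, 92.3 and 102 CPM in SKG iNKT2. It fell with subset in BALB/c (-0.86 ± 0.207, edgeR adjusted p = 2.0e-03), and the iNKT2 genotypes overlapped. The region at -4.0 kb (chr8:84982442-84983091) was called lower in BALB/c iNKT2 and not in SKG. It held 7.41 and 10.2 CPM in BALB/c iNKT1, 4.95 and 5.26 CPM in SKG iNKT1, 2.07, 1.59 and 1.32 CPM in BALB/c iNKT2, and 6.66, 2.76 and 4.32 CPM in SKG iNKT2. The subset change was -2.39 ± 0.306 in BALB/c (edgeR adjusted p = 7.0e-06) and -0.14 ± 0.313 in SKG (edgeR adjusted p = 0.74), and SKG iNKT2 exceeded BALB/c iNKT2 by 1.47 ± 0.291 (edgeR adjusted p = 1.6e-03), which did not pass without BALB/c iNKT2 replicate 2 or 3.

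At Jund, whose product is broadly expressed, the start fell from 194 ± 1.78 to 119 ± 2.07 CPM in BALB/c (-0.70 ± 0.123, edgeR adjusted p = 1.4e-04) and from 211 ± 9.16 to 144 ± 12.4 CPM in SKG (-0.55 ± 0.123, edgeR adjusted p = 1.5e-03). The regions at -14.4 and -5.2 kb were called lower in SKG iNKT2 (-2.34 ± 0.341 and -2.46 ± 0.337). In BALB/c the same regions changed by -1.78 ± 0.318 and -1.47 ± 0.305, which passed the adjusted p and not the 4-fold limit.

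**Figure D3:**
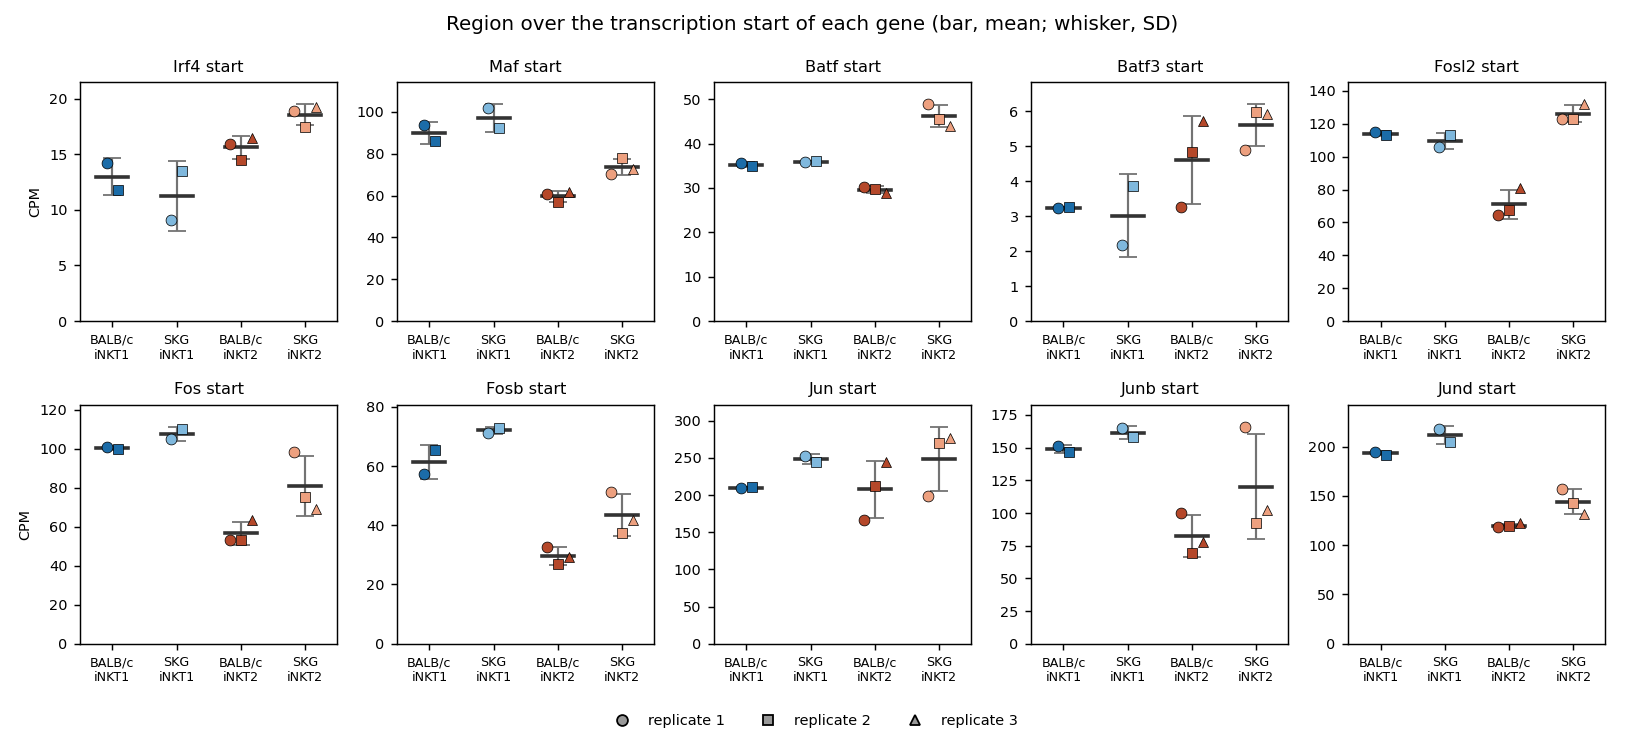
Accessibility in CPM of the region over the transcription start of each of the 10 genes, 1 point per library and a bar at the mean with a whisker of ± SD for each of the 4 groups. BALB/c iNKT2 lies below BALB/c iNKT1 at Fos, Fosb, Fosl2, Junb, Jund and Maf, and at Batf and Fosl2 the 3 SKG iNKT2 libraries lie above all BALB/c iNKT2 libraries.

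Taking the 10 start regions as a group, 6 passed adjusted p under 0.01 as lower in BALB/c iNKT2 (Fos, Fosb, Fosl2, Junb, Jund and Maf), with a median log2 change of -0.64. Over all 11948 regions at protein-coding starts the median was -0.35 and 37.8% were lower by the same rule, as were 23.5% of regions of every kind. In SKG, Fosb and Jund passed as lower and Irf4 as higher, against 14.3% and 8.8% of all starts. Between genotypes in iNKT2 the median was 0.42, with a range of 0.25 to 0.83, and Batf, Fosl2 and Fosb passed as higher. The SKG iNKT2 libraries lay above all BALB/c iNKT2 libraries at 7 of the 10 starts, as they did at 35.7% of all starts. Over all starts the median was 0.25 in that comparison, and 8.1% of them passed as higher and 2.31% as lower, while 4.07% of all regions passed as higher.

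Counted over all 189 regions, 15 (7.94%) were called higher and 8 (4.23%) lower in iNKT2 than in iNKT1 cells of BALB/c mice and in SKG 14 (7.41%) were called higher and 8 (4.23%) lower. These shares were below those of the whole table in both genotypes and directions. The 8 higher regions called in both genotypes were 53.3% of those called in BALB/c and 57.1% of those called in SKG, and the 5 lower ones were 62.5% of each list. Without the 4-fold limit, 25 regions rose and 62 fell in BALB/c (13.2% and 32.8%, against 25.7% and 23.5% of all regions). In SKG 30 rose and 30 fell (15.9% each, against 18.5% and 17.6%). With quantile normalization (voom) 10 regions were called higher and 14 lower in BALB/c, against 9.54% and 9.46% of all regions, and 5 higher and 8 lower in SKG, against 4.48% and 7.39%.

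Several SKG subset calls rest on few insertions in the SKG iNKT1 libraries. The total of 22 became 15 without SKG iNKT1 replicate 1 and 14 without replicate 2. Those of Batf at +26.1 kb, Jun at -24.3 kb, Junb at -32.7 kb, Fos at +5.0 kb and Fosb at +7.8 kb were lost under voom and without at least 1 SKG iNKT1 library.

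**Figure D4:**
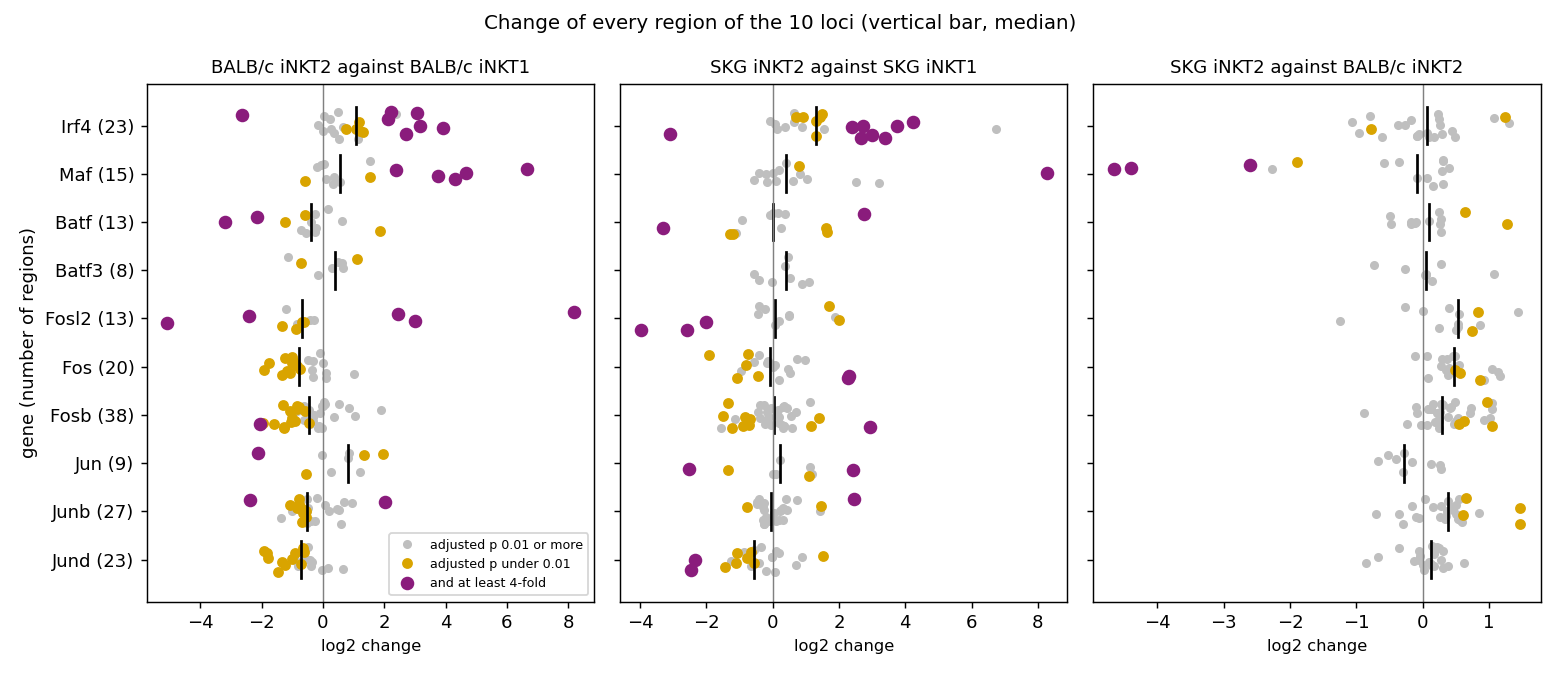
Fitted log2 changes of the 189 regions, by gene, for iNKT2 against iNKT1 in BALB/c, iNKT2 against iNKT1 in SKG, and SKG against BALB/c in iNKT2, 1 point per region with called regions marked. Irf4 points lie mostly above 0 in both subset comparisons, and the called points of the genotype comparison are 3 Maf regions between -4.66 and -2.61. Values of regions with no insertion in 1 group, such as 8.19 at Fosl2 and 8.28 at Maf, depend on the prior count.

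Between genotypes within the iNKT1 subset, edgeR called 0 of 189 regions, against 1.02% of all regions, with 26 at an unadjusted p under 0.05 (17.1% of all regions) and 0 called by DESeq2 or voom. Without the 4-fold limit 2 regions fell, against 1.44% of all regions. They were Irf4 at -0.7 kb, described above, and Fosb at -11.6 kb (11.9 and 13.8 CPM in BALB/c iNKT1, 4.95 and 5.65 CPM in SKG iNKT1, -1.27, edgeR adjusted p = 6.3e-03). A fit to the 4 iNKT1 libraries alone, which called 1.74% of all regions, called 1 of the 189, Irf4 at -3.0 kb, where BALB/c iNKT1 held 1.13 and 1.94 CPM and SKG iNKT1 0.514 and 0.128 CPM.

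Within the iNKT2 subset the called changes were the 3 lower Maf regions (1.59%), against 4.72% of all regions called lower and 0.25% called higher. Without the 4-fold limit 16 regions (8.47%) were higher in SKG and 5 (2.65%) lower, against 4.07% and 10.2% of all regions. The higher ones lay at Fosb (4), Junb (4), Fos (3), Batf (2), Fosl2 (2) and Irf4 (1), and the lower ones at Maf (4) and Irf4 (1). With the replicate number as a block the counts were 24 and 8, against 6.04% and 11.8% of all regions, and with library totals in place of TMM 6 and 6, against 1.75% and 10.9%. The number of higher regions dropped to 10 when BALB/c iNKT1 replicate 1 was left out, 9 without either SKG iNKT1 replicate, 6 without BALB/c iNKT2 replicate 2 and 5 without replicate 3, and the lower count was 8 without SKG iNKT2 replicate 1 and 3 without replicate 2.

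The interaction was called by edgeR at 0 of 189 regions, against 0.538% of all regions, with 41 at an unadjusted p under 0.05 (19.9% of all regions), 2 called by DESeq2 (1.47% of all regions) and 0 by voom. The 2 regions called by DESeq2 were Junb at -4.0 kb and Maf at -19.2 kb. Without the 4-fold limit, Fosb at -11.6 and -15.9 kb passed as higher, against 0.46% of all regions, and neither passed with library totals, voom or without any single iNKT1 library, BALB/c iNKT2 replicate 2 or 3, or SKG iNKT2 replicate 3. For Junb at -4.0 kb the interaction was 2.25 ± 0.442 (edgeR adjusted p = 0.011). It was called with the replicate block (edgeR adjusted p = 3.8e-03), and also when BALB/c iNKT2 replicate 1 or SKG iNKT2 replicate 2 was left out. It did not pass with library totals (edgeR adjusted p = 0.031) or voom (limma adjusted p = 0.014). Nor did it pass without any single iNKT1 library (edgeR adjusted p 0.035 to 0.076) or without BALB/c iNKT2 replicate 2 or 3 (edgeR adjusted p = 0.039 for each).

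Insertions were also summed over each locus and tested among 18134 protein-coding loci. Sums are compared between groups and not between genes, since the number and width of regions differ. Irf4 held 154 and 135 CPM in BALB/c iNKT1, 119 and 126 CPM in SKG iNKT1, 277, 242 and 219 CPM in BALB/c iNKT2, and 273, 207 and 231 CPM in SKG iNKT2. It was the only one of the 10 loci to rise with subset, by 0.77 in BALB/c (edgeR adjusted p = 6.4e-04, against 13.2% of all loci higher) and 0.96 in SKG (edgeR adjusted p = 4.5e-04, against 8.32%). The BALB/c call was lost without BALB/c iNKT1 replicate 2.

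Batf, Junb, Jund, Fos, Fosb and Fosl2 fell in BALB/c iNKT2, by 0.59 to 0.91, against 40.6% of all loci lower and a median of -0.25 over all loci. In SKG only Jund and Fos fell, against 19.9% of all loci. The Junb sum did not pass without either BALB/c iNKT1 replicate or BALB/c iNKT2 replicate 2 or 3. With library totals or voom only Irf4, Fos and Fosl2 passed in BALB/c and only Irf4 in SKG. Of all loci, 19.8% were then higher and 10.7% lower in BALB/c with library totals and 12.7% and 13.9% with voom, and in SKG 13.3% and 6.05% were higher. Voom moved the median over all loci to -0.01. The Jun, Maf and Batf3 sums passed in no comparison with edgeR. At Maf they were 184 and 169 CPM in BALB/c iNKT1, 201 and 185 CPM in SKG iNKT1, 160.0, 167 and 172 CPM in BALB/c iNKT2, and 165, 191 and 194 CPM in SKG iNKT2, so the changes at its small distal regions did not show in the sum.

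Fosl2 was the locus whose sum differed most by genotype. It held 259 and 247 CPM in BALB/c iNKT1, 245 and 258 CPM in SKG iNKT1, 144, 139 and 164 CPM in BALB/c iNKT2, and 252, 216 and 231 CPM in SKG iNKT2. The iNKT2 genotypes did not overlap (0.64, edgeR adjusted p = 8.5e-04), and this call held in every setting. Batf, Fos and Fosb also passed as higher in SKG iNKT2 (0.39, 0.44 and 0.37), making 4 of 10 against 11.2% of all loci higher and 5.82% lower, and only Fosl2 passed with library totals (0.904% of all loci higher), voom (1.59%) or a fit to the 2 groups alone. With single libraries left out 1 to 5 loci were called, always with Fosl2 among them, and the count was 1 without BALB/c iNKT1 replicate 1 or 2, BALB/c iNKT2 replicate 2 or 3 or SKG iNKT2 replicate 3, and 2 without SKG iNKT1 replicate 1 or 2 or BALB/c iNKT2 replicate 1. In the iNKT1 genotype comparison edgeR called 0 of the 10 loci, against 0.601% of all loci, with 0 at an unadjusted p under 0.05 and 0 with DESeq2. A fit to those groups alone called 2, Irf4 and Jun, and 15.5% of all loci. The interaction was called by edgeR at 0 of the 10, against 0.414% of all loci, with 5 at an unadjusted p under 0.05 (25.4% of all loci) and 2 called by DESeq2 (4.5% of all loci).

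**Figure D5:**
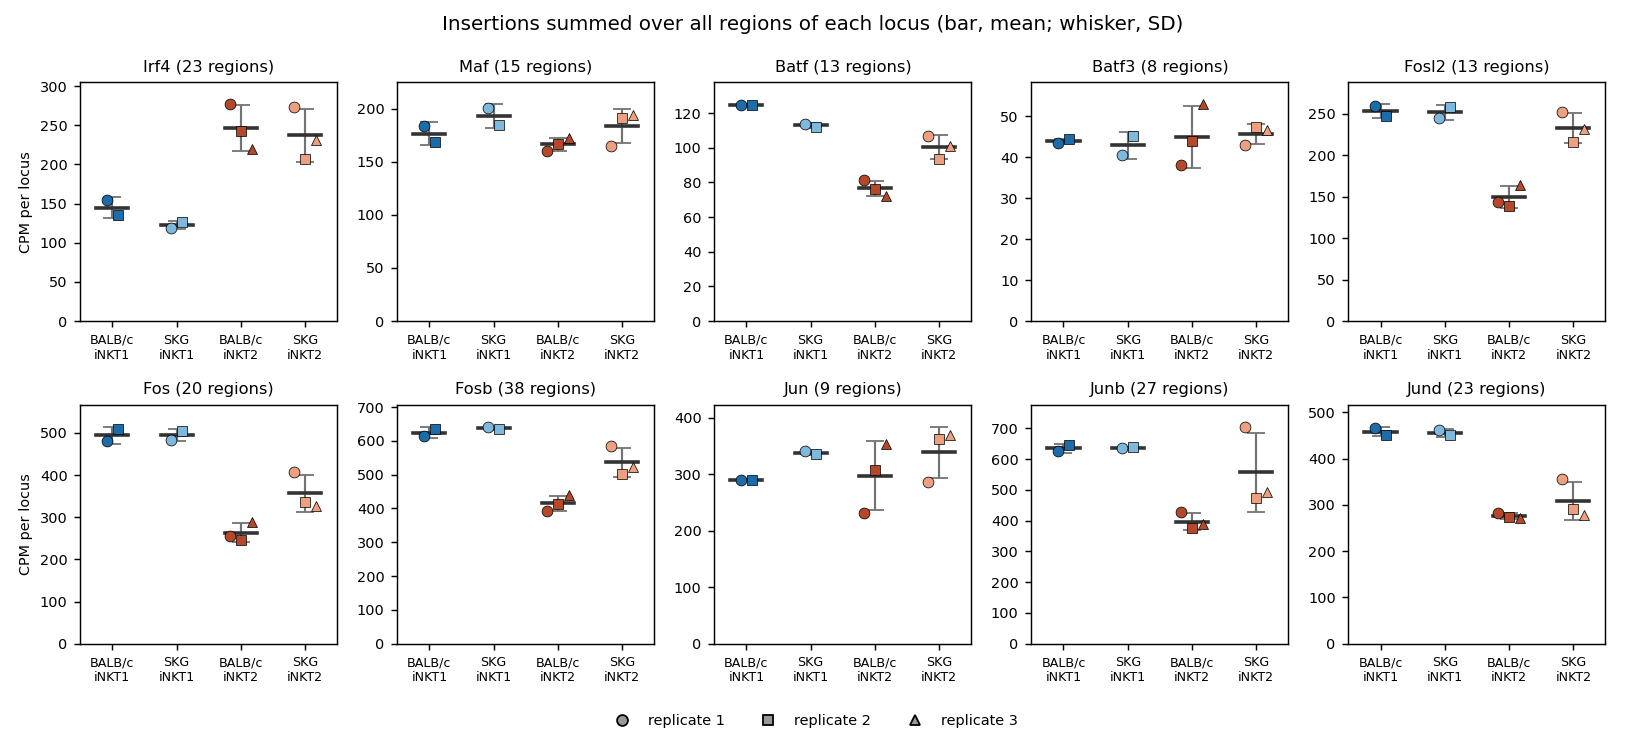
Insertions summed over the regions of each of the 10 loci, in CPM, 1 point per library and a bar at the mean with a whisker of ± SD for each of the 4 groups. Irf4 is higher in the iNKT2 than in the iNKT1 libraries, and at Fosl2 BALB/c iNKT2 (139 to 164 CPM) lies below SKG iNKT2 (216 to 252 CPM).

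Among 20 other genes of these families (6 AP-1 and ATF, 8 IRF, 6 MAF and CNC), 16 locus sums fell in BALB/c iNKT2 and 9 in SKG iNKT2, with median log2 differences of -0.50 and -0.24 over the 20 genes, beside -0.25 and -0.11 over all 18134 loci, of which 40.6% and 19.9% fell. Between the iNKT2 genotypes 4 of the 20, Atf7, Irf3, Irf9 and Nfe2l2, were higher in SKG, with a median log2 difference of 0.24 over the 20 genes beside 0.17 over all loci, of which 11.2% were higher. Itgam, the only one of 3 myeloid markers with a start region, measured 0 to 3.91 CPM over all libraries.

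Motif strings were counted in the central 300 bases of every region, on both strands. TGACTCA was present in 20 of the 189 regions (10.6%) and in 7 of the 33 regions called in any comparison (21.2%), against 7.59% of all regions and 9.85% of all 26518 called regions. The cyclic AMP element TGACGTCA was found in 0.529% and 0.904% of the 189 and of all regions, GAAANNGAA in 8.47% and 10.8%, GAAATGANT, the start of an AP-1-IRF composite element, in 1.59% and 1.82%, and TGGAAA in 20.6% and 23.4%. TGCTGAC, part of a Maf element, was in 3.70% and 5.57%, the Egr core GCGTGGG in 4.76% and 3.68%, and the T-box string AGGTGTGA in 2.12% and 1.91%. Of the 33 called regions, 7 held TGGAAA (21.2%, against 27.1% of all called regions), 4 GAAANNGAA (12.1%, against 11.8%), 3 TGCTGAC (9.09%, against 6.32%), 1 GCGTGGG (3.03%, against 2.84%) and 1 AGGTGTGA (3.03%, against 3.04%), and none held TGACGTCA or GAAATGANT (0.799% and 2.38% of all called regions). These are matches of letters and not bound sites.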

How the data were processed

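The authors deposited 1 table of counts, transposase insertions per region and library. Its name speaks of normalized counts, but its values are whole numbers, library totals differ, and every whole number up to 1042 occurs in each library, so they were treated as raw. If they had been scaled before, depths, CPM and tests would change. By their methods, reads were aligned to mm10 with bowtie (Bowtie 1.0 in the submitters' processing notes), mitochondrial and duplicate reads were removed, MACS2 summits of all replicates were merged, blacklisted regions and chromosome Y were removed, and insertions were counted. The library totals cover the listed regions only. Regions of 300 to 7709 bp (median 343 bp) were assigned to genes with GENCODE release M21 (GRCm38). The authors' methods also widen each summit to a uniform size before merging. That size exceeds the median width of the deposited regions, so the described steps and these regions do not match, and the reason is not known.

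Counts were fitted with edgeR 4.0.16 in R 4.3.3 (TMM, 1 mean per group, robust quasi-likelihood) for 5 contrasts, over 94823 regions and, summed within 50 kb or the gene body, over 18134 loci. Loci were called at adjusted p under 0.01. CPM are counts scaled by the library total times its TMM factor. A separate copy of the fit was tested on simulated counts for 1 contrast, SKG iNKT2 against BALB/c iNKT2, with changes set only in regions of higher counts. Contrasts with iNKT1 groups, interactions, low-count regions and changes under 4-fold were not covered. Counting intervals and floors cover counting error only.

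Named regions were those over a start, the called region of smallest adjusted p per gene, direction and contrast, those called in the interaction, and the smallest adjusted p per gene in BALB/c iNKT2 against BALB/c iNKT1 and in SKG iNKT2 against BALB/c iNKT2. Other regions were named after their values were seen. Sequences are reference GRCm38. The genes, lists and rules were chosen with earlier results of these data known.

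Replicate numbers were taken to pair the iNKT2 groups because each same-numbered pair correlated above 0.1: deviations from the group means correlated at 0.492, 0.165 and 0.202 between same-numbered BALB/c and SKG libraries, and what the numbers share is not given. Only replicate 1 correlated best with its own number. BALB/c 2 with SKG 3 (0.18) and BALB/c 3 with SKG 2 (0.278) correlated more than same-numbered libraries. Same-numbered BALB/c iNKT1 and BALB/c iNKT2 libraries also correlated above 0.1 (0.145 and 0.107). With 2 iNKT1 libraries the deviations mirror each other, so these values are not independent. BALB/c iNKT1 replicate 2 also correlated at 0.0923 with BALB/c iNKT2 replicate 3. The main fit had no replicate term, so its p-values ignore any such pairing, and the replicate block was run as an alternative. Alternatives were DESeq2 1.42.0, library totals, voom with quantile normalization (limma 3.58.1), leaving out features with low mean insertions (under the lower quartile, 36.2 for regions and 1070 for loci), a fit to the groups compared, a replicate block, other thresholds, a 25 kb window, the nearest start only, and leaving out each library. A related gene, a marker and a sequence are not reported here.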

Additional observations from a re-analysis of the deposited data

Results flagged for a closer look

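These results are listed because the genotype change in iNKT2 cells differed from that in iNKT1 cells by edgeR's interaction test at an adjusted p under 0.05 over all regions or loci. Without SKG iNKT1 replicate 1 every listed region was above 0.05 (edgeR adjusted p 0.051 to 0.12). Without BALB/c iNKT1 replicate 2 only Irf4 at -0.7 kb stayed under it (edgeR adjusted p = 0.039). Leaving out BALB/c iNKT1 replicate 1 or SKG iNKT1 replicate 2 also put most listed regions above 0.05. Under voom Irf4 at -0.7 kb, Fos at -26.7 kb and Fosl2 at -2.4 kb were above it (limma adjusted p = 0.091, 0.055 and 0.087). With library totals Fos at -26.7 kb, Irf4 at +1.5 kb and Fosl2 at -2.4 kb were above it (edgeR adjusted p = 0.060, 0.055 and 0.066). The Fosl2 locus sum was above 0.05 with voom (limma adjusted p = 0.12) and library totals (edgeR adjusted p = 0.11).

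At Fosb the interaction was 1.77 at -11.6 kb (edgeR adjusted p = 6.1e-03) and 1.72 at -15.9 kb (edgeR adjusted p = 8.1e-03), where the group means were 9.11 CPM in BALB/c iNKT1, 5.39 in SKG iNKT1, 4.49 in BALB/c iNKT2 and 8.74 CPM in SKG iNKT2. At +43.8 kb, in the Vasp exon, it was 1.01 (edgeR adjusted p = 0.012, and 5.5e-03 with the replicate block). At Junb -4.0 kb it was 2.25 (edgeR adjusted p = 0.011, and 3.8e-03 with the block). At Fosl2 it was 0.88 over the start (edgeR adjusted p = 0.015, and 2.3e-03 with the block), 1.1 at -2.4 kb (edgeR adjusted p = 0.023, and 7.2e-03 with the block), and 0.65 for the locus sum (edgeR adjusted p = 0.038). At Irf4 it was 1.46 at -0.7 kb (edgeR adjusted p = 0.016, and 8.8e-03 with the block) and 1.64 at +1.5 kb (edgeR adjusted p = 0.019, and 5.5e-03 with the block). At Fos -26.7 kb it was 0.86 (edgeR adjusted p = 0.022, and 8.8e-03 with the block).

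In 2 regions the sign was the opposite, with the SKG level lower against BALB/c in iNKT2 than in iNKT1. The interaction was -1.98 at Maf -19.2 kb (edgeR adjusted p = 0.038) and -0.79 at Jun -16.0 kb (edgeR adjusted p = 0.048), where the means were 26.9 CPM in BALB/c iNKT1, 32.6 in SKG iNKT1, 18.4 in BALB/c iNKT2 and 12.8 CPM in SKG iNKT2.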

How the results depend on the processing

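No alternative reversed a result. For the 36 changes of single regions, 228 kept their side of the threshold under the alternatives that keep all libraries, 10 lost it and 8 gained it, and with single libraries left out these numbers were 340, 18 and 2. Counts of called regions that moved by over 1.5 times were, for BALB/c iNKT2 against BALB/c iNKT1 (23), 15 with the low-count filter, 63 at adjusted p under 0.05 and 2-fold and 13 within 25 kb (18 to 28 without single libraries), and for SKG iNKT2 against SKG iNKT1 (22), 13 with voom and 53 at the looser thresholds (14 to 22 without single libraries). For SKG against BALB/c in iNKT1 (0) they were 1 in the 2 groups alone and 2 at the looser thresholds, and in iNKT2 (3) 1 with the filter, 17 at the looser thresholds and 1 within 25 kb (2 to 3 without single libraries). The interaction (0) gave 2 with DESeq2, 1 with the replicate block and 8 at the looser thresholds (0 to 1 without single libraries). Locus counts were 3 with library totals and with voom in BALB/c (7 in the report, 5 to 7 without single libraries), 1 with either in SKG (3, with 1 to 5), 2 for the iNKT1 genotypes alone (0), and for the iNKT2 genotypes (4) 1 with library totals, voom or the 2 groups alone (1 to 5). The locus interaction (0) gave 2 with DESeq2 and 1 at adjusted p under 0.05. Without the 4-fold limit, an alternative chosen after seeing the data, the iNKT2 genotype counts of 16 higher and 5 lower became 6, 8 and 32 higher (library totals, the 2 groups alone, adjusted p under 0.05; 5 to 17 without single libraries) and 3, 8 and 11 lower (filter, replicate block, adjusted p under 0.05; 3 to 8). The replicate block otherwise lost the SKG subset call of Fosb at +7.8 kb, brought the BALB/c change of Fos at -43.3 kb to -2.00, and gave 5 loci in place of 4 for the iNKT2 genotypes. Other scalings moved the whole table. The share of called regions that were higher was 70.9% with TMM and 50.2% with voom in BALB/c, 59.4% and 37.7% in SKG, 28.1% and 51.7% between iNKT1 genotypes, 5.03% and 25.3% between iNKT2 genotypes, and in the interaction 35.5% with TMM and 25.4% with library totals. The median of all regions in BALB/c was 0.06 with TMM and 0.34 with library totals. The cause of these differences between settings was not tested. With 2 iNKT1 libraries per genotype, small regions held few insertions there, which limits the SKG subset and interaction results.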

Other observations

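Over the 10 libraries, the locus sums most like those of Irf4 among 13772 loci of at least 5 regions, leaving out loci that share a region, were Cyth3 (Pearson's r of log2(CPM + 1) sums 0.981), Sardh (0.979) and Ephb2 (0.977). Those most like Batf were Mef2d (0.992), Ncoa3 (0.990) and Vps26a (0.990), and those most like Maf were Prpf4b (0.945), Slc25a28 (0.927) and Entpd7 (0.924). These are descriptions over 4 groups of libraries that share depth and scaling.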
